A study of Mus musculus with 15 samples.

Results

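The 9 genes described here are the mouse Notch receptors Notch1, Notch2, Notch3 and Notch4 and the Notch ligands Jag1, Jag2, Dll1, Dll3 and Dll4. They were taken by gene name from a table of 28876 genes, in which each of the 9 names had 1 row. A filter for low values left 18553 genes for testing, and all 9 were among them. RNA was measured in parts of the aorta-gonad-mesonephros (AGM), in which the first hematopoietic stem cells arise, from C57BL/6 mouse embryos. Pieces holding the dorsal aorta and the tissue around it were cut into a dorsal (AoD) and a ventral (AoV) domain, taken from embryos of day E9.5 (E9 AoD, E9 AoV) and of day E10.5 (E10 AoD, E10 AoV), and the urogenital ridges from the older embryos only (E10 UGR). Each of the 5 groups has 3 libraries. The embryos carried no transgene, deletion or treatment that the labels name, and each library was made from whole tissue pooled over many embryos and dissected in separate experiments. Each value is therefore a mean over embryos and over every cell type in the piece, and fewer cells of a type and less RNA per cell cannot be told apart.

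Notch signaling passes between touching cells. A ligand of the Jagged or Delta-like family on one cell binds a Notch receptor on its neighbor, the receptor is cut, and its intracellular part enters the nucleus, joins the DNA-binding protein RBPJ and turns on target genes such as those of the Hes and Hey families. In the embryonic aorta the pathway is known for arterial identity and for the emergence of blood cells from the endothelium, and in the neighboring paraxial mesoderm and neural tube it is known for somite formation and for the timing of neuron production. Notch1 and Notch4 are expressed in endothelium and Notch3 in mural cells. Dll4 is an arterial endothelial ligand, Dll1 and Dll3 are best known from presomitic mesoderm and neural progenitors, and Dll3 is known to act within the cell that makes it.

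Expression was given as RPM, the reads of a gene scaled to the total assigned to genes, and fold changes were fitted with limma on log2(RPM + 0.1), a scale on which the changes of low genes are slightly understated. A gene was called when its adjusted p was below 0.05 and its change was at least 2-fold, and it passed when its adjusted p was below 0.05. Between stages, none of the 9 genes was called by limma in AoV, against 11.0% of all genes tested, although 6 had an unadjusted p below 0.05, 6 passed, against 46.0%, and 6 had ranges that did not overlap, against 55.0%. In AoD over the same day, 2 of 9 were called, against 12.6% of all genes, 7 passed, against 57.8%, and 7 had ranges that did not overlap, against 60.7%. Between AoV and AoD, 3 of 9 were called at E9.5 and all 3 were lower in AoV, against 11.8% of all genes called and 3.47% called lower. With quantile normalization the genes called here changed from 1544 higher and 643 lower to 1200 higher and 820 lower, and the same 3 members stayed lower and called. Of the 9, 6 passed, against 47.7%, and 6 had ranges that did not overlap, against 51.3%. At E10.5, 2 of 9 were called and both were lower in AoV, against 10.1% of all genes called and 4.29% called lower. Here 7 passed, against 35.5%, and 7 had ranges that did not overlap, against 49.5%. Against the urogenital ridges, 3 of 9 were called in E10 AoV, against 7.57% of all genes, and 3 of 9 in E10 AoD, against 11.3%. In each of these comparisons 6 members passed, against 29.1% of all genes for E10 AoV and 39.2% for E10 AoD, and 6 had ranges that did not overlap, against 48.6% and 50.9%. Both comparisons share the E10 UGR libraries, and every other pair of comparisons with a group in common shares libraries in the same way. The stage by position interaction, which is the change over this day in AoV minus that in AoD, passed for 4 of 9 genes, against 28.1% of all genes, and was called by limma for none, against 11.0%, while 6 had an unadjusted p below 0.05.

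**Figure D1:**
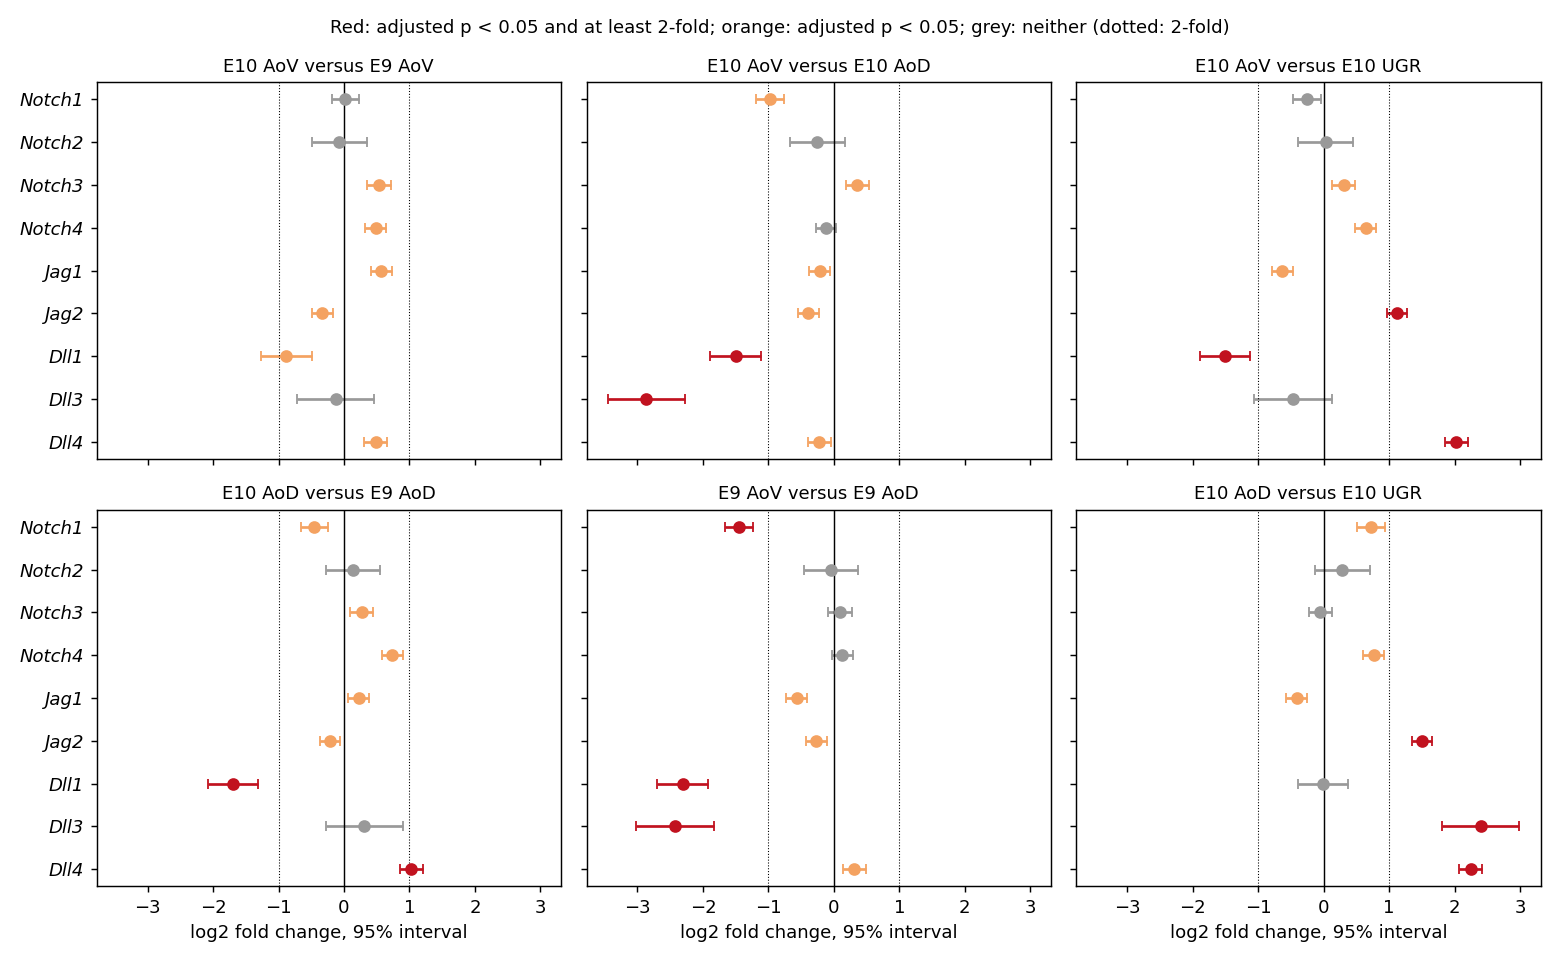
Log2 fold change of the 9 genes in each of 6 comparisons, with the 95% interval of the limma fit (n = 3 libraries a group) and dotted lines at 2-fold. Dll1 and Dll3 lie furthest to the left in both AoV versus AoD panels, and Dll4 lies to the right of the 2-fold line in both panels against E10 UGR.

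Divided by exonic length, so that genes can be compared, the sums of the 4 receptors differed less between groups than those of the 5 ligands. Receptor sums still did not overlap between the ventral groups, at 32.12 to 39.03 RPM per kilobase in E9 AoV and 41.85 to 48.37 in E10 AoV. Summed receptor RPM per kilobase was 42.0 ± 3.76 (SD, n = 3) in E9 AoD and 45.6 ± 5.05 in E10 AoD, compared with 35.6 ± 3.46 in E9 AoV, 46.2 ± 3.73 in the older AoV and 39.4 ± 2.39 in the ridges. Summed ligand RPM per kilobase was 39.7 ± 3.66 in E9 AoD and 35.7 ± 2.55 in E10 AoD, but 18.3 ± 2.48 in E9 AoV, 20.3 ± 0.718 in the older AoV and 22.5 ± 0.837 in the ridges. The lowest ligand sum in an AoD library, 34.0, was above the highest in any AoV library, 21.0. The ratio of receptors to ligands on this scale was 1.06 ± 0.0665 in E9 AoD and 1.28 ± 0.196 in E10 AoD, compared with 1.98 ± 0.397 in E9 AoV, 2.27 ± 0.116 in the older AoV and 1.76 ± 0.173 in the ridges. These sums are a description and were not tested.

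Notch3 was the largest receptor per length in every group. Its share of the summed receptors was 47.5% ± 1.43 (SD, n = 3) in E9 AoD and 53.0% ± 0.223 in E10 AoD, and it was larger outside the dorsal domain, at 59.9% ± 1.09 in E9 AoV, 66.9% ± 1.58 in the older AoV and 63.4% ± 1.64 in E10 UGR. Notch1 held 29.6% ± 1.35 in E9 AoD and 12.8% ± 0.585 in E9 AoV. The Notch1 share depends on the gene model, since the exons of all its annotated transcripts span 14232 bases and its longest transcript 9488. With the longest transcript of each gene, Notch1 held 38.2% in E9 AoD, close to the 40.8% of Notch3 there. The mean Notch3 share over the 15 libraries went from 58.1% to 52.8%. Among the ligands the leading gene differed between groups. Dll1 led in E9 AoD with 37.9% ± 2.12, Dll3 in E10 AoD with 29.3% ± 1.62 just ahead of Jag1 with 27.6% ± 0.264, and Jag1 in E9 AoV with 31.3% ± 2.12, in E10 AoV with 41.6% ± 0.872 and in E10 UGR with 58.4% ± 1.39. Dll4 made up 29.4% ± 0.428 of the ligands in E10 AoV and 6.47% ± 0.447 in E10 UGR, while Dll1 made up 7.97% ± 0.474 and 20.7% ± 1.75.

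**Figure D2:**
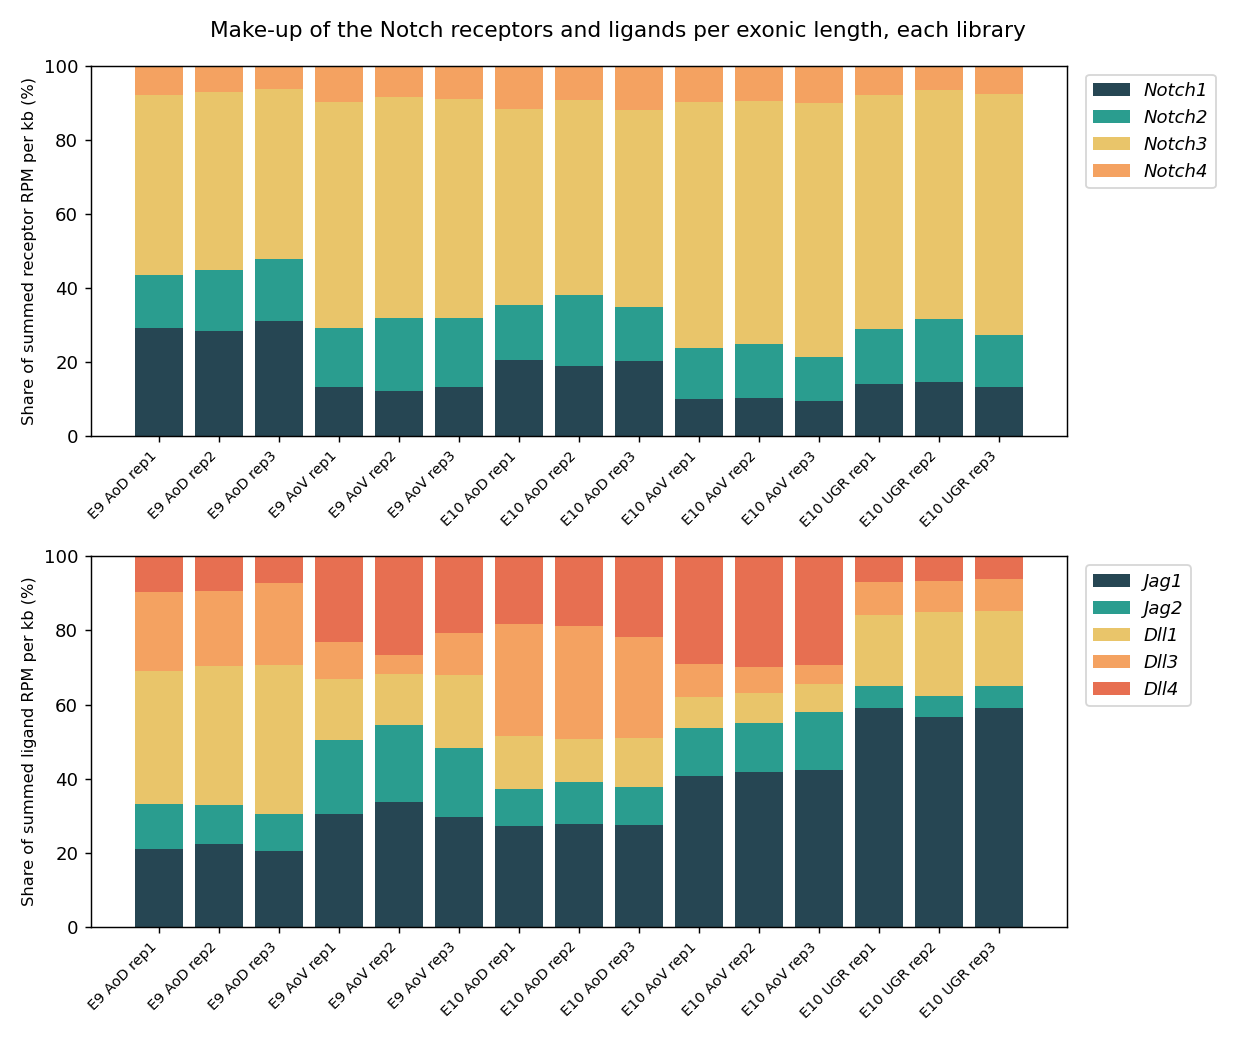
Share of each receptor in the summed receptor RPM per kilobase (top) and of each ligand in the summed ligand RPM per kilobase (bottom), in percent, for each of the 15 libraries. By exonic length, Notch3 is the largest receptor in all libraries, and the ligand that leads changes from Dll1 in E9 AoD to Jag1 in E10 AoV and E10 UGR.

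Notch1 was the receptor that differed most between the dorsal and ventral domains. The gene (ENSMUSG00000026923; chromosome 2, 26313423 to 26372183, minus strand, build NCBIM37) measured 159, 185 and 187 RPM in E9 AoD and 60.0, 67.5 and 66.8 RPM in E9 AoV. At E10.5 it measured 129, 139 and 120 RPM in AoD, 69.7, 71.7 and 56.7 RPM in AoV, and 77.9, 87.7 and 70.6 RPM in UGR. All 6 dorsal libraries were above all 9 others. It was 2.73-fold lower in E9 AoV than in E9 AoD (log2 fold change -1.45 ± 0.099 SE, limma adjusted p = 2.65e-08) and 1.96-fold lower in E10 AoV than in E10 AoD (-0.97 ± 0.099, limma adjusted p = 1.72e-06). The E10.5 difference lay just inside the 2-fold threshold and crossed it without E10 AoD replicate 3 (-1.03) and without E10 AoV replicate 1 (-1.02) or 2 (-1.04). In AoD it fell 1.37-fold from E9.5 to E10.5 (limma adjusted p = 0.00122), whereas in AoV the change was 0.02 with a 95% interval of -0.19 to 0.23 on the log2 scale. The interaction was 0.47 ± 0.14 SE (limma adjusted p = 0.0197), and its adjusted p was 0.0511 without E10 AoD replicate 3, 0.0531 without E10 AoV replicate 1 and 0.0542 without E10 AoV replicate 2. Against E10 UGR, Notch1 was 1.65-fold higher in E10 AoD (limma adjusted p = 3.26e-05) and 1.19-fold lower in E10 AoV, which did not pass (limma adjusted p = 0.0663), although it passed without E10 AoV replicate 2 (0.0491) and without E10 UGR replicate 3 (0.0346). Exons of Notch1 overlap those of the lincRNA 0610009E02Rik on the other strand, which reached 2.61 RPM at most. The strand setting of the counting is not given in the sources used here, so their reads cannot be told apart.

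Notch2, a widely expressed receptor (ENSMUSG00000027878; chromosome 3, 97817461 to 97954290, plus strand), was the only member that passed in no comparison. Its values were 57.3, 78.2 and 74.7 RPM in E9 AoD, 53.8, 81.2 and 69.8 RPM in E9 AoV and 68.9, 102 and 63.6 RPM in E10 AoD. They were 68.8, 73.6 and 51.8 RPM in E10 AoV and 61.4, 74.1 and 54.5 RPM in E10 UGR. The ranges of neighboring groups overlapped throughout, and replicate 2 was the highest library in 5 of 5 groups. The standard error of its fitted log2 difference was 0.20, so that the 95% interval between E10 AoV and E9 AoV ran from 0.711-fold to 1.27-fold.

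Notch3, the receptor of smooth muscle and pericytes (ENSMUSG00000038146; chromosome 17, 32257765 to 32303825, minus strand), was highest in E10 AoV. It measured 149, 177 and 156 RPM in E9 AoD, 158, 187 and 169 RPM in E9 AoV and 187, 218 and 178 RPM in E10 AoD. In E10 AoV the values were 258, 255 and 231 RPM, and in E10 UGR they were 200, 208 and 194 RPM. No library of another group reached the lowest E10 AoV value. It rose 1.45-fold with stage in AoV (log2 fold change 0.54 ± 0.083 SE, limma adjusted p = 9.45e-05) and was 1.28-fold higher in E10 AoV than in E10 AoD (limma adjusted p = 0.00342). The rise with stage in AoD was 1.21-fold (limma adjusted p = 0.011) and did not pass without E9 AoD replicate 1 (0.0524) or E10 AoD replicate 2 (0.0628). The excess of E10 AoV over E10 UGR was 1.24-fold (limma adjusted p = 0.0119) and did not pass without E10 AoV replicate 1 (0.0508). Between E9 AoV and E9 AoD the log2 difference was 0.093 and did not pass (limma adjusted p = 0.382). A limma fit of the E9 groups alone with the replicate number as a block, chosen after seeing the data, gave the same difference an adjusted p of 0.0327. That these numbers pair the libraries was inferred from their shared deviations and is not given by the labels. The interaction of Notch3 did not pass (0.26, limma adjusted p = 0.114), but it passed without E10 AoD replicate 2 (0.027). The summed smooth muscle and pericyte markers, a list of 8 genes including Acta2, Tagln and Myh11, ranged from 1187 to 1250 RPM in E10 AoV, followed by 801 to 953 in E10 AoD, 619 to 628 in E9 AoV, 349 to 393 in E10 UGR and 184 to 305 in E9 AoD, and their part in the Notch3 result was not tested. Exons of Notch3 overlap those of the lincRNA Gm17276 on the other strand, for which no value was used here.

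Notch4, an endothelial receptor (ENSMUSG00000015468; chromosome 17, 34701213 to 34725448, plus strand), rose with stage in both domains. Values were 24.4, 26.1 and 21.1 RPM in E9 AoD and 25.3, 26.7 and 25.9 RPM in E9 AoV, compared with 41.3, 37.8 and 39.9 RPM in E10 AoD and 38.2, 37.3 and 34.0 RPM in E10 AoV. In E10 UGR they were 25.0, 22.4 and 22.6 RPM, within the E9.5 levels. The 6 E10.5 aorta libraries were thus above all 9 others. The rise was 1.67-fold in AoD (log2 fold change 0.74 ± 0.075 SE, limma adjusted p = 1.01e-06) and 1.40-fold in AoV (0.49 ± 0.075, limma adjusted p = 8.54e-05). Against E10 UGR it was 1.70-fold higher in E10 AoD (limma adjusted p = 9.97e-07) and 1.56-fold higher in E10 AoV (limma adjusted p = 1.07e-05). AoV and AoD did not differ past the threshold at E9.5 (limma adjusted p = 0.183) or at E10.5 (limma adjusted p = 0.237). The interaction was -0.25 (limma adjusted p = 0.0995) and passed without E9 AoD replicate 2 (0.0334).

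**Figure D3:**
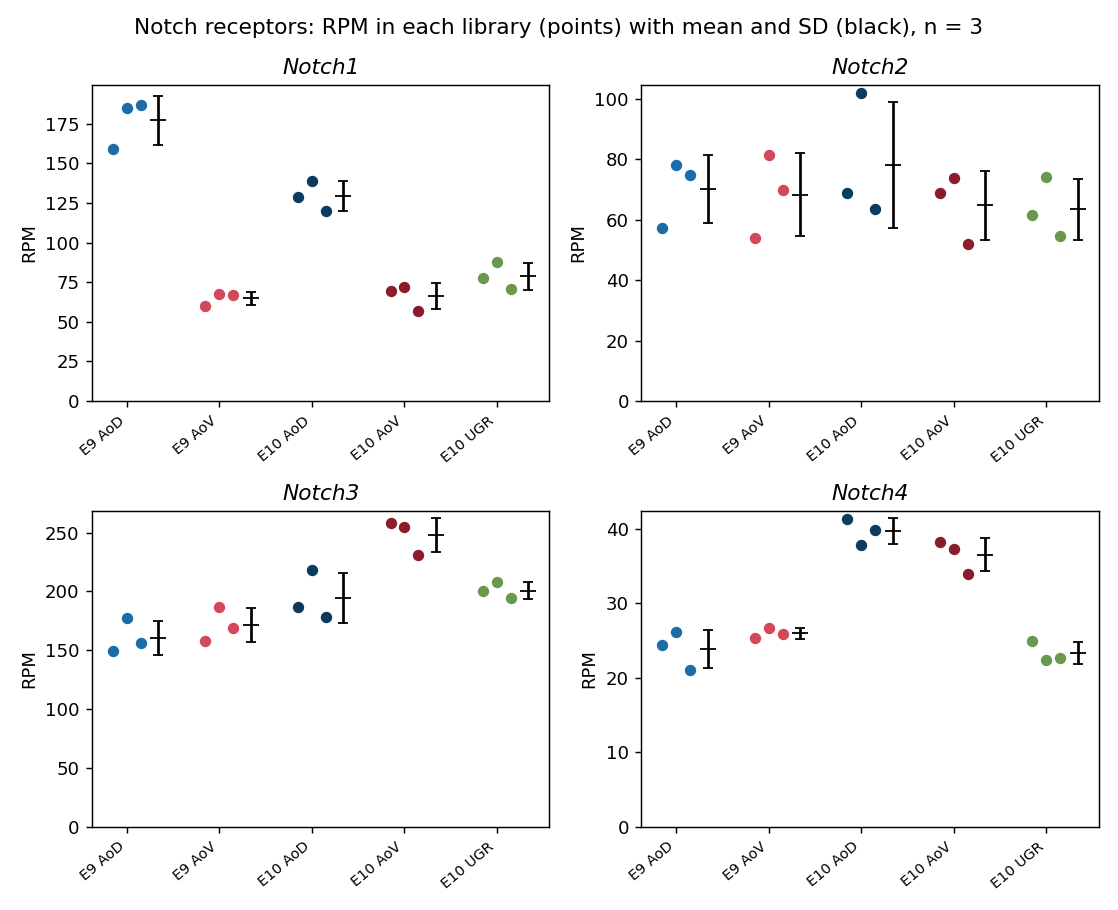
RPM of the 4 Notch receptors in each library (points, 3 per group), with the group mean and SD in black and each axis starting at 0. Notch1 is highest in E9 AoD and E10 AoD, Notch3 in E10 AoV, and Notch4 in E10 AoD and E10 AoV.

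Jag1 (ENSMUSG00000027276; chromosome 2, 136907192 to 136942380, minus strand), a Jagged ligand of arteries and of many epithelia, was highest in the urogenital ridges. It measured 78.3, 71.3 and 79.9 RPM in E10 UGR, compared with 61.5, 55.2 and 55.4 RPM in E10 AoD and 49.7, 49.8 and 48.3 RPM in E10 AoV. At E9.5 it measured 43.8, 53.2 and 50.8 RPM in AoD and 31.8, 31.6 and 36.3 RPM in AoV. The E10 UGR libraries were above all others and the E9 AoV libraries below all others. Relative to E10 UGR it was 1.55-fold lower in E10 AoV (log2 fold change -0.63 ± 0.075 SE, limma adjusted p = 1.4e-05) and 1.33-fold lower in E10 AoD (limma adjusted p = 0.000437). It was 1.48-fold lower in E9 AoV than in E9 AoD (limma adjusted p = 2.18e-05) and rose 1.48-fold with stage in AoV (limma adjusted p = 2.23e-05). The rise in AoD was 1.17-fold (limma adjusted p = 0.0205) and did not pass without E9 AoD replicate 1 (0.111) or E10 AoD replicate 1 (0.0936). At E10.5 it was 1.16-fold lower in AoV than in AoD (limma adjusted p = 0.0359), and this did not pass without E10 AoD replicate 1 (0.151) or without any 1 of the E10 AoV libraries (0.0722 to 0.0946). The interaction was 0.35 ± 0.11 SE (limma adjusted p = 0.0245), and its adjusted p was between 0.0514 and 0.0598 without E9 AoD replicate 2 or 3, E9 AoV replicate 1 or 2, E10 AoD replicate 2 or 3, or E10 AoV replicate 1.

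Jag2, the other Jagged ligand (ENSMUSG00000002799; chromosome 12, 114146801 to 114167706, minus strand), was lowest in the urogenital ridges. Values were 17.3, 17.4 and 17.6 RPM in E9 AoD, 14.3, 13.5 and 15.7 RPM in E9 AoV, and 15.4, 15.5 and 14.3 RPM in E10 AoD. They were 11.0, 11.1 and 12.4 RPM in E10 AoV and 5.36, 4.91 and 5.49 RPM in E10 UGR. The highest E10 UGR value was below the lowest aorta value. Jag2 was 2.83-fold higher in E10 AoD (limma adjusted p = 7.08e-10) and 2.17-fold higher in E10 AoV (log2 fold change 1.12 ± 0.073 SE, limma adjusted p = 3.96e-08) than in E10 UGR. It was lower in AoV than in AoD at both stages, by a log2 difference of -0.27 at E9.5 (limma adjusted p = 0.00736) and 1.31-fold at E10.5 (limma adjusted p = 0.000645). With stage it fell 1.26-fold in AoV (limma adjusted p = 0.00182) and 1.16-fold in AoD (limma adjusted p = 0.023). The fall in AoD did not pass without E9 AoD replicate 3 (0.054) or E10 AoD replicate 3 (0.0905).

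Dll1 (ENSMUSG00000014773; chromosome 17, 15504318 to 15513836, minus strand), a Delta-like ligand of presomitic mesoderm and neural progenitors, was the member with the largest change with stage. It measured 54.2, 64.4 and 72.5 RPM in E9 AoD and 12.5, 9.30 and 17.5 RPM in E9 AoV. At E10.5 it measured 23.4, 16.7 and 18.9 RPM in AoD, 7.44, 6.94 and 6.16 RPM in AoV, and 18.4, 20.6 and 19.9 RPM in UGR. Every E9 AoD library was above every other library, and every E10 AoV library was below. Dll1 fell 3.24-fold with stage in AoD (log2 fold change -1.69 ± 0.18 SE, limma adjusted p = 1.73e-06) and 1.84-fold in AoV (-0.88 ± 0.18, limma adjusted p = 0.00106). The fall in AoV passed 2-fold without E9 AoV replicate 2 (-1.10), the lowest library of that group. It was 4.96-fold lower in E9 AoV than in E9 AoD (limma adjusted p = 1.02e-07), 2.83-fold lower in E10 AoV than in E10 AoD (limma adjusted p = 1.03e-05), and 2.85-fold lower in E10 AoV than in E10 UGR (limma adjusted p = 1.47e-05). E10 AoD and E10 UGR did not differ past the threshold, with a 95% interval of 0.759-fold to 1.30-fold (limma adjusted p = 0.975). The interaction was 0.81 ± 0.26 SE (limma adjusted p = 0.028). It was 0.59 without E9 AoV replicate 2 and 1.04 without E9 AoV replicate 3, and its adjusted p was between 0.0536 and 0.0713 without E9 AoD replicate 3, E9 AoV replicate 2, E10 AoD replicate 2 or 3, or E10 AoV replicate 1 or 2. Exons of Dll1 overlap those of the lincRNA A930024N18Rik on the other strand, which reached 1.78 RPM at most.

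Dll3 (ENSMUSG00000003436; chromosome 7, 29076673 to 29087257, minus strand) had the widest gap between the domains. It measured 21.9, 23.7 and 27.2 RPM in E9 AoD and 33.5, 29.7 and 27.2 RPM in E10 AoD. In AoV it measured 5.11, 2.46 and 6.77 RPM at E9.5 and 5.45, 4.12 and 2.91 RPM at E10.5, and in E10 UGR 5.81, 5.22 and 5.83 RPM. The lowest AoD library was more than 3 times the highest library of any other tissue. It was 5.38-fold lower in E9 AoV than in E9 AoD (log2 fold change -2.43 ± 0.28 SE, limma adjusted p = 4.43e-06), 7.29-fold lower in E10 AoV than in E10 AoD (-2.87 ± 0.28, limma adjusted p = 1.01e-06) and 5.27-fold higher in E10 AoD than in E10 UGR (2.40 ± 0.28, limma adjusted p = 5.39e-06). Unlike that of Dll1, its change with stage in AoD was 0.31 with a 95% interval of -0.28 to 0.90 on the log2 scale (limma adjusted p = 0.35). It passed only in a fit of the E9 AoD and E10 AoD libraries alone (0.0322). In AoV the change with stage was -0.13 (limma adjusted p = 0.744), and without E9 AoV replicate 2 it was -0.53 and passed (0.042). The interaction of -0.44 likewise passed only without that library (-0.85, adjusted p 0.0303, against 0.459 with all libraries).

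Dll1 and Dll3 were both higher in AoD, so the 300 bases around their start sites, 250 before and 50 after, are shown here from RefSeq. The RefSeq table uses GRCm38.p6, and each of these windows also occurred exactly once in NCBIM37, the build of the files, whose coordinates are given. For Dll1 the table has 2 start sites, and the one nearest the annotated gene start is printed (chr17:15513847-15514146, minus strand). The Dll3 window is chr7:29086755-29087054, minus strand. Capitals mark the E-box CANNTG, the core bound by basic helix-loop-helix factors, which reads the same pattern on both strands.
Dll1: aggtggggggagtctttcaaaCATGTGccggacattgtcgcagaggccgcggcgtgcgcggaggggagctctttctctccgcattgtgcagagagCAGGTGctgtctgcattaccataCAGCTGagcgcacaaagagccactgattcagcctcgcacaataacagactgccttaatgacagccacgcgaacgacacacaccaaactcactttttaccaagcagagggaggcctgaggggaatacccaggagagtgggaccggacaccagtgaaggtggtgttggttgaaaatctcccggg
Dll3: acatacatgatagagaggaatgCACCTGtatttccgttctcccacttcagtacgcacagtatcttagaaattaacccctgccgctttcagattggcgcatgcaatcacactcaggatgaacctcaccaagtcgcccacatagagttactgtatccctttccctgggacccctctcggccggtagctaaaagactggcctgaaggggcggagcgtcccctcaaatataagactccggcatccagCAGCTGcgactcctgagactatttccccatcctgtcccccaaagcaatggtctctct
The printed window of Dll1 held 3 matches and that of Dll3 held 2. Among the windows of the other members only those of Notch4 and Jag1 held the motif, with 1 match each. Of 32851 promoters of this length in the table, 72.3% held at least 1 match. The RBPJ core TGGGAA, searched on both strands, was in no window of the 9 members and in 25.6% of all promoters.

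Dll4 (ENSMUSG00000027314; chromosome 2, 119151520 to 119161698, plus strand), the Delta-like ligand of arterial endothelium, separated all neighboring groups without overlap. It was highest in E10 AoD with 27.3, 24.8 and 28.8 RPM, followed by E10 AoV with 23.4, 23.5 and 22.1 RPM. E9 AoV measured 15.9, 16.4 and 16.8 RPM, E9 AoD 13.1, 14.8 and 11.7 RPM, and E10 UGR 5.99, 5.46 and 5.34 RPM. Against E10 UGR it was 4.75-fold higher in E10 AoD (log2 fold change 2.25 ± 0.082 SE, limma adjusted p = 5.74e-11) and 4.06-fold higher in E10 AoV (2.02 ± 0.082, limma adjusted p = 5.99e-10). With stage it rose 2.04-fold in AoD (1.03 ± 0.082, limma adjusted p = 9.12e-08) and 1.40-fold in AoV (0.49 ± 0.082, limma adjusted p = 0.000209). The rise in AoD sat at the 2-fold line and was 0.95 on the log2 scale without E9 AoD replicate 3 and 0.98 without E10 AoD replicate 3. The interaction of -0.54 ± 0.12 SE had the lowest adjusted p of the 9 genes (limma adjusted p = 0.00271) and passed without each library in turn. At E9.5 Dll4 was 1.24-fold higher in AoV than in AoD (limma adjusted p = 0.0056). At E10.5 it was 1.17-fold lower in AoV (limma adjusted p = 0.0444), a result that no longer passed when any of the E10 AoV libraries was left out (0.0769 to 0.131). It was also lost without E10 AoD replicate 1 (0.109) or 3 (0.17), E9 AoD replicate 1 (0.0508), E9 AoV replicate 2 (0.0523) or 3 (0.0554), or E10 UGR replicate 2 (0.0537). Exons of Dll4 overlap those of the lincRNA Gm14207 on the other strand, which reached 1.26 RPM at most.

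Dll4 and Notch4 had the highest Pearson correlation of any receptor and ligand outside the pairs of Notch1 with Dll1 or Dll3, 0.827 on the log2 scale over 15 libraries, and their promoter windows are shown for comparison. The Dll4 window is chr2:119151270-119151569, plus strand, and the Notch4 window is chr17:34700990-34701289, plus strand. Capitals mark GGAA, the core of the sites of ETS factors, or TTCC where it lies on the other strand. TGGGAA would also hold GGAA, but it was in neither window.
Dll4: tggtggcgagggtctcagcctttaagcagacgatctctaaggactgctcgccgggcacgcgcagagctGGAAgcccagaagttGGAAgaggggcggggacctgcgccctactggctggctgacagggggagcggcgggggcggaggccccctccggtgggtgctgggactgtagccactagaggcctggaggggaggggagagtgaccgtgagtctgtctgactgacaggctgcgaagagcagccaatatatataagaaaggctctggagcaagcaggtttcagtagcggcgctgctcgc
Notch4: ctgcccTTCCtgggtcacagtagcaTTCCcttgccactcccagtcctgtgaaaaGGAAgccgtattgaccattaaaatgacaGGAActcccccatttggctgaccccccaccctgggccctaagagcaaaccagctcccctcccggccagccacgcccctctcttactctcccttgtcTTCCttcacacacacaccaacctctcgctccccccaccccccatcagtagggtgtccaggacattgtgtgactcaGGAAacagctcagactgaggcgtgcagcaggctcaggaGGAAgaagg
The Notch4 window held 7 matches and the Dll4 window 2. Over all promoters the median was 3 matches, the 90th percentile was 6, and 96.0% held at least 1. A match is a string of letters and not a measured binding site.

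**Figure D4:**
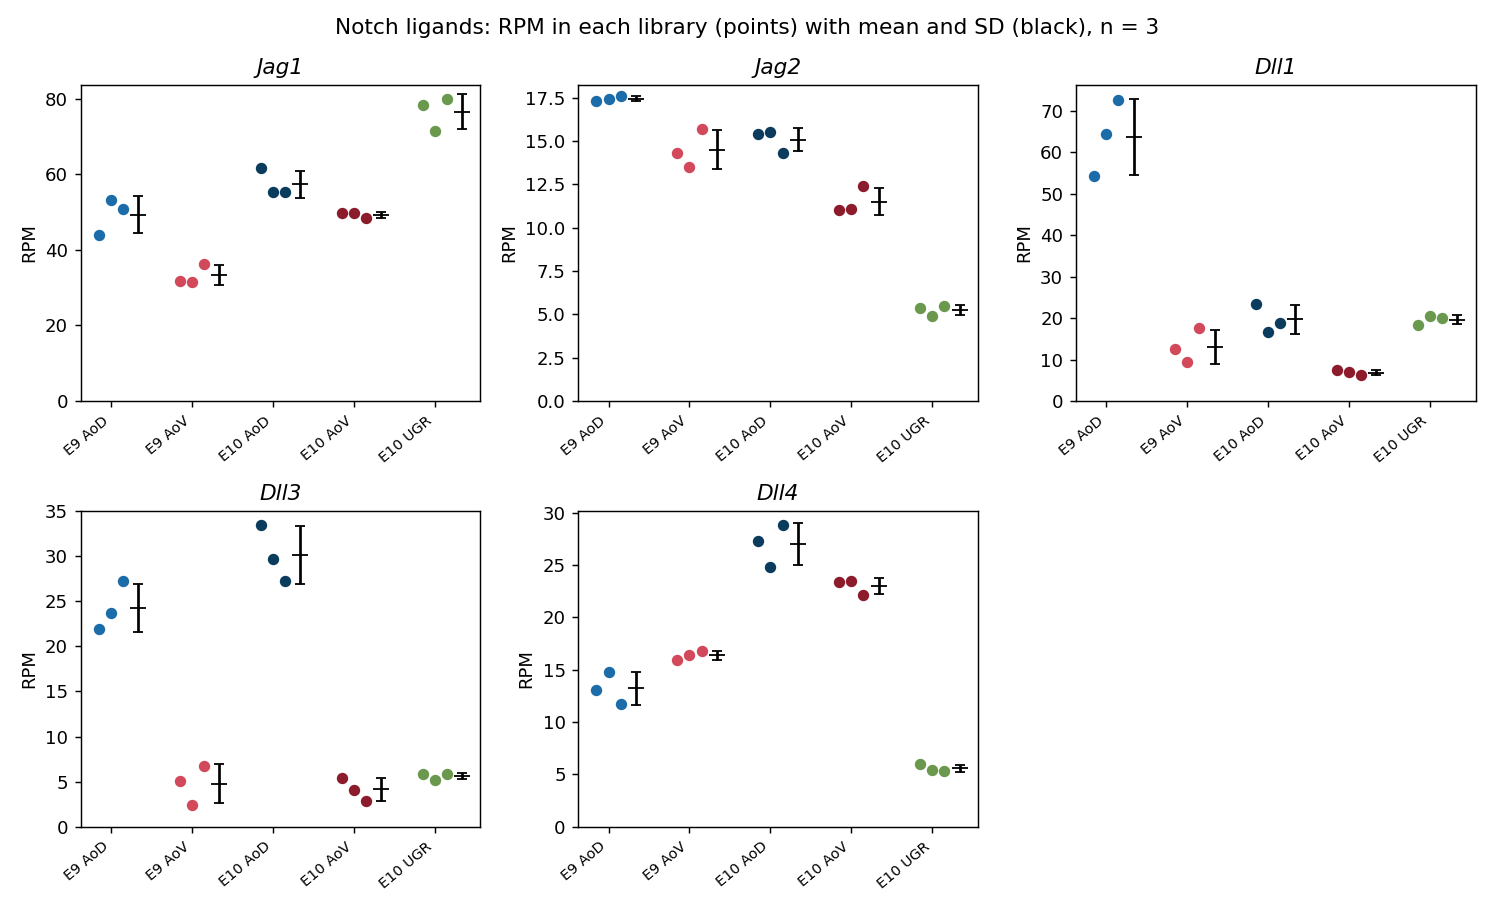
RPM of the 5 Notch ligands in each library (points, 3 per group), with the group mean and SD in black and each axis starting at 0. Dll1 is highest in E9 AoD, Dll3 in both AoD groups, Jag1 in E10 UGR, and Dll4 and Jag2 are lowest in E10 UGR.

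The summed neural markers and the summed somite markers were lower in AoV than in AoD at both stages, as were Dll1, Dll3 and Notch1. The match did not hold in every pair of groups. Mean Dll1 was 19.7 RPM in E10 AoD and 19.6 in E10 UGR, while the mean somite sum was 337 and 136. Mean Dll3 was 24.3 RPM in E9 AoD and 30.1 in E10 AoD, while the mean neural sum was 412 and 243. The 11 neural tube and neurogenic markers, among them Sox1, Sox2 and Pax6, summed to 309 to 561 RPM in E9 AoD and 215 to 276 in E10 AoD, compared with 24.2 to 30.0 in E9 AoV, 34.9 to 44.1 in the older AoV and 38.8 to 39.0 in the ridges. All 11 were called lower in AoV than in AoD at both stages, against 3.47% of all genes at E9.5 and 4.29% at E10.5. In E9 AoV none of the libraries had more than 3 reads of Neurog1, and in E10 AoV and the ridges none had more than 3 reads of Sox1 or Neurog1. The 9 presomitic mesoderm and somite markers, among them Tbx6, Meox1 and Pax3, summed to 458 to 461 RPM in E9 AoD and 330 to 345 in E10 AoD, against 57.6 to 87.3 in E9 AoV, 33.1 to 39.7 in the older AoV and 119 to 157 in the ridges. Most of this sum came from Meox1, with means of 294 RPM in E9 AoD and 213 in E10 AoD. Tbx6 had means of 2.94 and 0.348 RPM there, and T 15.4 and 33.9. Of the 9 markers, 7 were called lower in E9 AoV than in E9 AoD, against 3.47% of all genes. At E10.5, 5 were called lower in AoV than in AoD, against 4.29%. Between stages, 7 of 9 were called lower in E10 AoV, where 11.0% of all genes were called in either direction. In E10 AoD 5 were called lower and 1 higher, against 12.6% of all genes. Of the defining presomitic genes, Msgn1 and Mesp2 had no more than 3 reads in all E10 AoD libraries, as did Ripply2 in all E10 AoV libraries and Msgn1 in all E10 UGR libraries. Within E9 AoD, Dll1 measured 54.2, 64.4 and 72.5 RPM in replicates 1, 2 and 3. The somite sum was nearly constant there, at 458, 460 and 461 RPM. The neural sum was 367, 309 and 561 RPM, lowest in replicate 2. Between E9 AoD and E10 AoD, 8 of 11 neural markers were called lower and 2 higher in the latter, against 12.6% of all genes called. The part of these lists in the results for Dll1, Dll3 and Notch1 was not tested.

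Endothelial markers moved with Dll4 and Notch4 in AoD. The 12 pan-endothelial markers, among them Pecam1 and Cdh5, summed to 406 to 539 RPM in E9 AoD and 794 to 870 in E10 AoD, 792 to 834 in E9 AoV and 835 to 899 in the older AoV, and 639 to 682 in the ridges. With stage 11 of 12 passed as higher in AoD, where 57.8% of all genes passed in either direction. In AoV 3 passed as higher and 1 as lower, against 46.0% of all genes. Their mean log2 level rose by 0.75 with stage in AoD and by 0.08 in AoV. Set against that mean in each library, Dll4 was higher at E10.5 than at E9.5 by 0.28 in AoD and by 0.41 in AoV on the log2 scale, and Notch4 by -0.02 in AoD and by 0.41 in AoV. The E9.5 difference of Dll4 between AoV and AoD was 0.31 in RPM and -0.42 against the endothelial mean. Against E10 UGR the excess of Dll4 stayed at 1.97 in E10 AoD and 1.68 in E10 AoV after the same subtraction. The 7 arterial markers, among them Gja4, Gja5 and Efnb2, summed to 272 to 361 RPM in E9 AoD and 688 to 705 in E10 AoD, 509 to 611 in E9 AoV and 788 to 808 in the older AoV, and 336 to 366 in the ridges. Most of this sum came from Efnb2, Nrp1 and Unc5b, which had means of 104, 84.4 and 63.6 RPM in E9 AoD and 114, 116 and 98.0 RPM in E10 UGR. The other 4 were lower in E10 UGR than in E9 AoD, as Dll4 was, with means of 11.51 against 36.67 RPM for Gja5, 4.59 against 14.1 for Gja4, 6.42 against 8.12 for Sox17 and 0.296 against 0.657 for Bmx. The part of these lists in the Dll4 and Notch4 results was not tested.

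**Figure D5:**
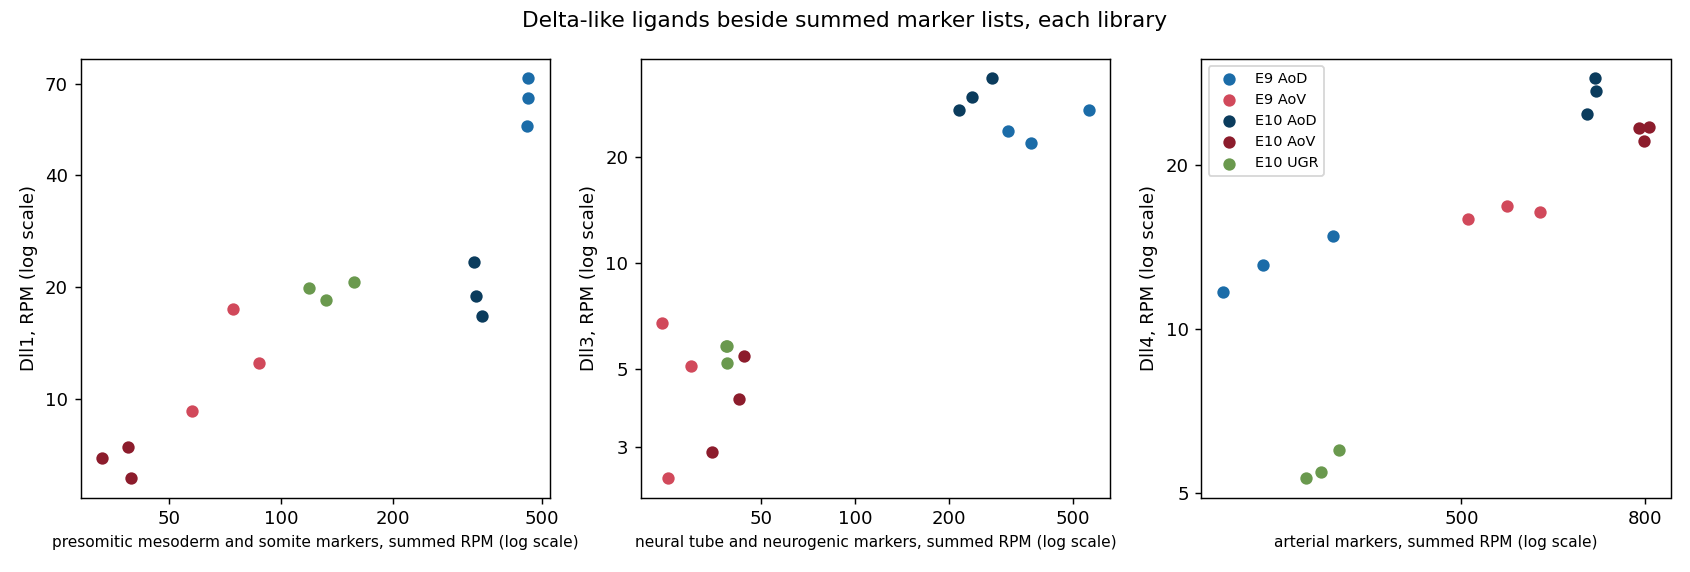
Dll1 against summed presomitic mesoderm and somite markers, Dll3 against summed neural tube and neurogenic markers, and Dll4 against summed arterial markers, in RPM on log axes, 1 point per library. Dll1 and the somite sum, most of which comes from Meox1, are both highest in E9 AoD. Dll3 and the neural sum are both higher in the 6 AoD libraries than in the others. Dll4 is lowest in E10 UGR, where the arterial sum is carried mostly by Efnb2, Nrp1 and Unc5b.

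For each member the genes with the most similar profile were named by their Pearson correlation on the log2 scale over the 15 libraries, which share dissection and depth. Dll4 was followed most closely by Gja5 (0.989) and Gja4 (0.988), which encode gap junction proteins of arterial endothelium, and Vwf (0.969), which encodes von Willebrand factor. Notch1 was followed by Nes (0.981), which encodes the neural progenitor filament nestin, Myo16 (0.976) and Fez1 (0.971). For Dll1 the list was RP23-212C14.11 (0.967), Pax3 (0.966), a factor of dorsal neural tube and somites, and AL606824.1 (0.964), and for Dll3 it was Dpt (0.968), Gsbs (0.967) and Fam189a1 (0.961). Notch4 was followed by Tm4sf1 (0.978), Osmr (0.976) and Ltbp4 (0.973), and Notch3 by Gse1 (0.965), Stxbp6 (0.963) and Thsd7a (0.962). Jag1 was followed by Trim62 (0.962), Tbc1d4 (0.960) and Wwox (0.956), and Jag2 by Stmn4 (0.955), Socs2 (0.949) and Gng4 (0.942). Notch2 had the weakest, with Bach2 (0.939), Pde4dip (0.921) and Nbas (0.829). Among the members themselves the closest pairs were Notch1 with Dll3 (0.906) and Notch1 with Dll1 (0.854).

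The rest of the pathway was described from lists of modulators and of target genes. Of the 21 glycosylation and trafficking modulators 20 could be tested, since Dlk2 was below the filter. Lfng, which encodes a glycosyltransferase that alters which ligands a receptor answers to, fell from 21.8 ± 6.22 RPM (SD, n = 3) in E9 AoD to 8.58 ± 1.16 RPM in E10 AoD (2.48-fold, limma adjusted p = 5.01e-05). It was 3.54 ± 0.974 RPM in E9 AoV, 6.01-fold lower than in E9 AoD (limma adjusted p = 7.74e-08). Its interaction was 2.08 (limma adjusted p = 5.82e-05). Dner, which encodes a non-canonical Notch ligand, rose 4.81-fold with stage in AoV (limma adjusted p = 1.04e-06) and 2.63-fold in AoD (limma adjusted p = 8.01e-05), at levels of 2.57 ± 0.135 RPM or below. Against E10 UGR it was 4.07-fold higher in E10 AoV (limma adjusted p = 6.13e-06) and 3.26-fold higher in E10 AoD (limma adjusted p = 1.85e-05). Dtx4, a Deltex ubiquitin ligase gene, fell 3.07-fold with stage in AoD (limma adjusted p = 1.51e-07) and exceeded its E10 UGR level 3.35-fold in E10 AoV (limma adjusted p = 2.06e-07). Neurl1b, at means of 0.684 RPM or below, was 2.90-fold higher in E9 AoV than in E9 AoD (limma adjusted p = 0.000234). With stage in AoD it rose 2.18-fold (limma adjusted p = 0.00215), and Neurl1a rose 2.17-fold (limma adjusted p = 2.32e-06). Mean Dtx1 was 2.64 RPM in E10 AoV and 1.63 in E10 AoD, against 6.06 in E10 UGR. Mean Mfng was 25.4 RPM in E10 AoD and 12.4 in E10 UGR.

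Of the 7 target genes, Hes1, Hes5, Hes7, Hey1, Hey2, Heyl and Nrarp, 4 were called lower and none higher in E9 AoV than in E9 AoD. Over all genes 3.47% were called lower. The median log2 change of the 7 was -1.03 against 0.018 for all genes. Hes5, a target in neural progenitors, measured 17.6 ± 7.76 RPM (SD, n = 3) in E9 AoD and 0.354 ± 0.147 RPM in E9 AoV, 37.1-fold lower (limma adjusted p = 1.25e-08). Heyl was 5.99-fold lower (limma adjusted p = 8.54e-10) and Nrarp, a feedback inhibitor, 3.72-fold lower (limma adjusted p = 1.55e-08). Hes7, the somite clock gene, was 2.05-fold lower (limma adjusted p = 0.0171) at low levels, 2.02 ± 0.563 RPM in E9 AoD and 0.982 ± 0.438 RPM in E9 AoV. Its means in the E10.5 groups were 0.378 RPM or below. Heyl is known as a target in mural cells. Of the 8 smooth muscle and pericyte markers, 5 were called higher in E9 AoV than in E9 AoD and none lower, against 11.8% of all genes called. Their part in the Heyl result was not tested. With stage in AoV, Heyl rose 5.71-fold (limma adjusted p = 7.67e-10) from 4.59 ± 0.627 to 26.6 ± 3.41 RPM and Hes7 fell 2.17-fold (limma adjusted p = 0.0116). With stage in AoD, Heyl rose 2.32-fold (limma adjusted p = 5.64e-07), while Hes5 fell 9.17-fold (limma adjusted p = 1.21e-06) and Hes7 fell 4.43-fold (limma adjusted p = 5.47e-05). At E10.5 Hes5 and Heyl were called lower in AoV than in AoD, 5.50-fold (limma adjusted p = 2.96e-05) and 2.44-fold (limma adjusted p = 5.25e-07). Hey2, a target in arterial endothelium, exceeded its E10 UGR level 2.74-fold in E10 AoV (limma adjusted p = 8.82e-08), while Hes5 was 2.52-fold lower there (limma adjusted p = 0.00658). In E10 AoD, Heyl was 3.16-fold (limma adjusted p = 3.03e-08) and Hes5 2.18-fold (limma adjusted p = 0.0137) above the E10 UGR level.

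Across the 15 libraries the depth was between 33.7 and 48.7 megareads, estimated from the size of the smallest values, and replicates of a group correlated at 0.993 or more. At this depth 3 reads correspond to 0.0617 to 0.0891 RPM, and the lowest value of any member was 2.46 RPM.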

How the data were processed

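RNA was extracted from AoD, AoV and UGR of C57BL/6 embryos, and libraries were made with the TruSeq kit and sequenced as single reads. The authors aligned reads to NCBIM37 (mm9) with TopHat and Bowtie v0.12.3, divided reads that map to several places between those places, counted them over Ensembl genes and deposited RPM, reads scaled to the total assigned to genes, rounded to 3 significant digits. The table also holds 12 columns of the authors' own comparisons (log2 fold changes and adjusted p-values), which were not used.

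A gene was tested if any library reached 0.5 RPM, and log2(RPM + 0.1) was fitted with limma v3.58.1 in R v4.3.3 with 1 mean per group over all 15 libraries, an intensity trend and Benjamini-Hochberg adjustment over all genes tested; a count test could not be run since only 54.9% to 59.3% of low values were whole multiples of 1 read within 0.4%. The fit was tested on simulated data. Groups and replicate numbers come from the labels, and the 9 genes, the gene lists and the tests were chosen with earlier results of these data known. The named genes are the 9 members, the 3 genes most correlated with each, up to 4 called genes of each pathway list with the largest changes in a comparison, and marker genes at or below 3 reads in every library or highest in their list. Of the table's gene IDs 95.263% matched the GENCODE annotation of NCBIM37, from which coordinates and exonic lengths were taken, and that annotation is not the Ensembl release the authors counted with. Alternatives changed the pseudocount, the filter, the scaling, the moderation, the samples fitted and the replicate block, and left out each library in turn.

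Replicates are pools of embryos dissected in separate experiments. Same-numbered libraries deviated together in E9 AoD and E9 AoV (correlation of deviations 0.19 to 0.452 in the 3 pairs), so the numbers were taken to pair these groups. In no other pair of groups were all 3 correlations over 0.1. They were 0.0889 to 0.168 in E10 AoV and E10 UGR, and 0.0441 to 0.339 in E10 AoD and E10 UGR. In E10 AoD and E10 AoV they were 0.0416 to 0.205, so a weaker pairing of the E10.5 groups is not excluded. Promoters come from RefSeq and were searched as text. Some of the gene lists are not reported here.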

Additional observations from a re-analysis of the deposited data

Results flagged for a closer look

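The change from the younger to the older stage differed between AoV and AoD for 4 of the 9 genes by the limma test of the interaction (AoV change minus AoD change, log2 scale), against 28.1% of all genes. The difference was -0.54 for Dll4 (adjusted p = 0.00271), which rose in both domains but more in AoD. It was 0.81 for Dll1 (adjusted p = 0.028), which fell in both domains but more in AoD. It was 0.47 for Notch1 (adjusted p = 0.0197), which fell in AoD, and 0.35 for Jag1 (adjusted p = 0.0245), which rose more in AoV. The interaction of Dll4 passed without each library in turn, whereas those of Notch1, Jag1 and Dll1 did not pass without some single libraries (adjusted p up to 0.0542, 0.0598 and 0.0713). No explanation was tested.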

How the results depend on the processing

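Of 1521 values of the 63 differences (9 genes, 6 comparisons and the interaction) under the alternatives, 1447 kept their direction and their side of an adjusted p of 0.05, 41 no longer passed, 11 newly passed and 22 changed sign. The sign changes were in differences that did not pass: Notch3 in E10 AoD against E10 UGR was 0.018 with TMM-type scaling, and Dll1 there 0.059 with TMM-type scaling and 0.057 with quantile normalization. Leaving out 1 library gave -0.041 to 0.13 for Notch1, -0.23 to 0.080 for Notch2 and -0.53 to 0.18 for Dll3 in E10 AoV against E9 AoV, and for Notch2 -0.069 to 0.27 in E10 AoD against E9 AoD, -0.18 to 0.12 in E9 AoV against E9 AoD and -0.075 to 0.18 in E10 AoV against E10 UGR. In E10 AoD against E10 UGR it gave -0.14 to 0.0095 for Notch3 and -0.14 to 0.10 for Dll1. The number of the 9 genes called in E10 AoD against E9 AoD was 2 and became 1 with a pseudocount of 1 RPM and 1 with quantile normalization, since Dll4 fell below 2-fold (0.98 and 0.93); without single libraries it was 1 to 2. Without single libraries it was 0 to 1 in E10 AoV against E9 AoV and 0 to 1 for the interaction, Dll1 in both (without E9 AoV replicate 2 and replicate 3). In E10 AoV against E10 AoD it was 2 and became 3 with quantile normalization or TMM-type scaling, as Notch1 reached -1.01 with each. In E10 AoV against E10 UGR it was 3 and became 2 with a pseudocount of 1 RPM, as Jag2 fell just below 2-fold.

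With a pseudocount of 1 RPM the calls over all genes fell from 2046 to 1104 in E10 AoV against E9 AoV, from 2337 to 1281 in E10 AoD against E9 AoD, from 1874 to 1020 in E10 AoV against E10 AoD, from 2187 to 1196 in E9 AoV against E9 AoD, from 1404 to 735 and from 2100 to 1143 against E10 UGR, and from 2044 to 1174 for the interaction. The replicate block changed no count of the 9 genes. In the fit of all 15 libraries, where the numbers were taken to pair only the E9 groups, the block let Notch1 in E10 AoV against E10 UGR (limma adjusted p = 0.0268) and the Notch3 interaction (0.0191) pass. The paired fit of the E9 groups, chosen after seeing the data, left 3 of the 9 called. Without a filter, Jag1 (0.0629) and Dll4 (0.0617) in E10 AoV against E10 AoD and the Dll1 interaction (0.0654) no longer passed, and with quantile normalization Dll4 in E9 AoV against E9 AoD did not (0.0594). With the longest transcript as length, the mean Notch3 share of the receptors moved from 58.1% to 52.8%, more than the spread between replicates, and the Jag1 share of the ligands was 35.1% in place of 36.0%. With quantile normalization the calls over all genes in E9 AoV against E9 AoD went from 1544 higher and 643 lower to 1200 higher and 820 lower.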
